A study of Mus musculus with 15 samples.

Results

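The genes described here were 5 transcription factors of the epithelial-mesenchymal transition (Snai1, Snai2, Twist1, Zeb1 and Zeb2), 3 classical cadherins (Cdh1, Cdh2 and Cdh3), the intermediate filament gene Vim and the epithelial adhesion gene Epcam. They were chosen by name, as entries of the expression table whose gene symbol was on this list. All 10 were found among the 23244 gene entries, each as a single entry, and all 10 passed the filter on low values that left 13845 genes for testing.

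Tissue came from SFEBq culture, a method in which dissociated mouse embryonic stem (ES) cells reaggregate and organize themselves into optic epithelium. All groups derived from a single ES cell line, EB5 Rx::GFP+/-, in which GFP reports the eye field gene Rx, and all had been kept as ES cells in 2i medium, which holds a GSK3 inhibitor and a MEK inhibitor. At the start of culture, 3000 cells were placed in each well, and Matrigel was added to 4%. GFP+ peripheral epithelium was excised with forceps at Day 10 and either collected at once (Day 10 Rx::GFP+) or cultured in retinal maturation medium until Day 12 or Day 15. For +Wnt, the medium held the GSK3 inhibitor CHIR99201 at 3 μM during the first 24 h and at 1 μM from then on. For +Fgf, it held human recombinant bFgf at 5 ng/ml and 10% FBS, and the parts of bFgf and of serum cannot be told apart. Each of the 5 groups held 3 biological replicates, so p-values measure the spread between explants of 1 cell line. By the study's account, Day 15 tissue was mostly, not wholly, neural retina-like under +Fgf and pigment epithelium-like under +Wnt. No tissue cultured to Day 12 or Day 15 without a stimulus was analysed here, so stimulus and time cannot be told apart in a comparison with Day 10.

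An epithelial cell holds to its neighbours through E-cadherin, the product of Cdh1, whose inner tail is tied to actin by catenins. In an epithelial-mesenchymal transition, factors of the Snail, Twist and Zeb families repress Cdh1 and other epithelial genes, often by binding a short DNA motif called an E-box, while N-cadherin (Cdh2) and vimentin (Vim) come to predominate. Neural epithelium, from which the retina forms, carries N-cadherin and vimentin as its normal complement, whereas the pigment epithelium is known for P-cadherin (Cdh3).

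Recovered reads ranged from 12556998 to 16175450 per library, and 1 read was worth between 0.0620 and 0.0764 CPM, the authors' name for their normalized counts. Of 7 pigment epithelium markers, 6 were above 3 reads in every library of every group, and their summed level was 5195 to 6718 CPM in Day 15 +Wnt against 327 to 395 CPM in Day 15 +Fgf. The remaining one, Rpe65, a gene of the mature visual cycle, was listed at 0 in 14 of 15 libraries, so the +Wnt tissue lacked this defining marker. The 6 neural retina progenitor markers summed to 2061 to 2137 CPM in Day 15 +Fgf and to 491 to 537 CPM in Day 15 +Wnt. These are bulk samples, in which fewer cells of a type and less RNA per cell cannot be told apart.

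Promoter sequences bear on these genes because Snail and Zeb factors bind the E-box, searched here as CAGGTG and its reverse complement CACCTG, so that both strands were covered. RefSeq windows of 250 bases before an annotated transcript start (GRCm38.p6) were held for Snai1, Twist1, Zeb2, Vim and Epcam, with several starts for Zeb2. The Vim window (chr2:13574061-13574310) and some of the Zeb2 windows lay inside the gene spans given below. Neither letter string occurred in the windows of Twist1, Zeb2 or Vim. Epcam held 2 matches, 187 and 19 bases before its start, and Snai1 held 1, 126 bases before its start. Among all 32851 windows, 17.2% held at least 1 match and 2.06% at least 2. A match is a description of the letters and was not tested as a binding site. Both windows with a match are shown in the direction of transcription with the match in capitals, Epcam at chr17:87635729-87635978 and Snai1 at chr2:167537945-167538194, each on the plus strand.
Epcam: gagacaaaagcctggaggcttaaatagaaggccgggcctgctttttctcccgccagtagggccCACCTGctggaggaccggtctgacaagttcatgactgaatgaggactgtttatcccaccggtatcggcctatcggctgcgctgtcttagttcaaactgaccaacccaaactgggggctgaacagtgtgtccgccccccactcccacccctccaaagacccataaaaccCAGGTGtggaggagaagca
Snai1: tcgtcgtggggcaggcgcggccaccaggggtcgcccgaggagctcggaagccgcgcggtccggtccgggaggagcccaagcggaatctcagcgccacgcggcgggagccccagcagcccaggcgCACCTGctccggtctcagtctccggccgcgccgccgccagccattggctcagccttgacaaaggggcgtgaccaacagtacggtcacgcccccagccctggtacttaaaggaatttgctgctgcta

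Vim and Cdh2 were by far the most abundant of these transcripts in every group, whereas Snai1 and Cdh1 were among the least abundant. Levels of different genes were compared per kilobase (kb) of exon, with gene positions and lengths from GENCODE M21 on GRCm38 (mm10). At Day 10, Vim stood at 231 ± 17.2 CPM per kb and Cdh2 at 54.9 ± 1.81 (SD, n = 3), and no other mean exceeded 6.57. Twist1, a basic helix-loop-helix factor, and Zeb1, a zinc-finger homeodomain repressor, followed, with replicate ranges that overlapped. Below Zeb2, the levels of Cdh3, Snai2, Cdh1, Epcam and Snai1 formed a chain in which each gene's range overlapped that of the next. The order then diverged between stimulations. Next after Cdh2 per kb came Zeb2 in Day 15 +Fgf, at 8.31 ± 0.412, ahead of Zeb1 at 7.03 ± 0.154, with no overlap between them. In Day 15 +Wnt, Cdh2 was followed by Twist1 at 11.8 ± 0.998 CPM per kb and by Cdh3 at 7.65 ± 0.94. In Day 15 +Fgf, Cdh3 stood at 1.11 ± 0.198, and only Snai1 had a lower mean. The ranges of Cdh3 and Cdh1 overlapped there, with Cdh1 at 0.661, 2.57 and 0.433 CPM per kb and Cdh3 at 1.18, 0.893 and 1.27. When the longest transcript was used as length, Vim and Cdh2 stayed on top in every group, and Cdh3 came behind Zeb1 in Day 15 +Wnt. With that length Twist1 also came behind Zeb1 and Zeb2 at Day 10 and behind Zeb1 in Day 12 +Wnt.

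**Figure D1:**
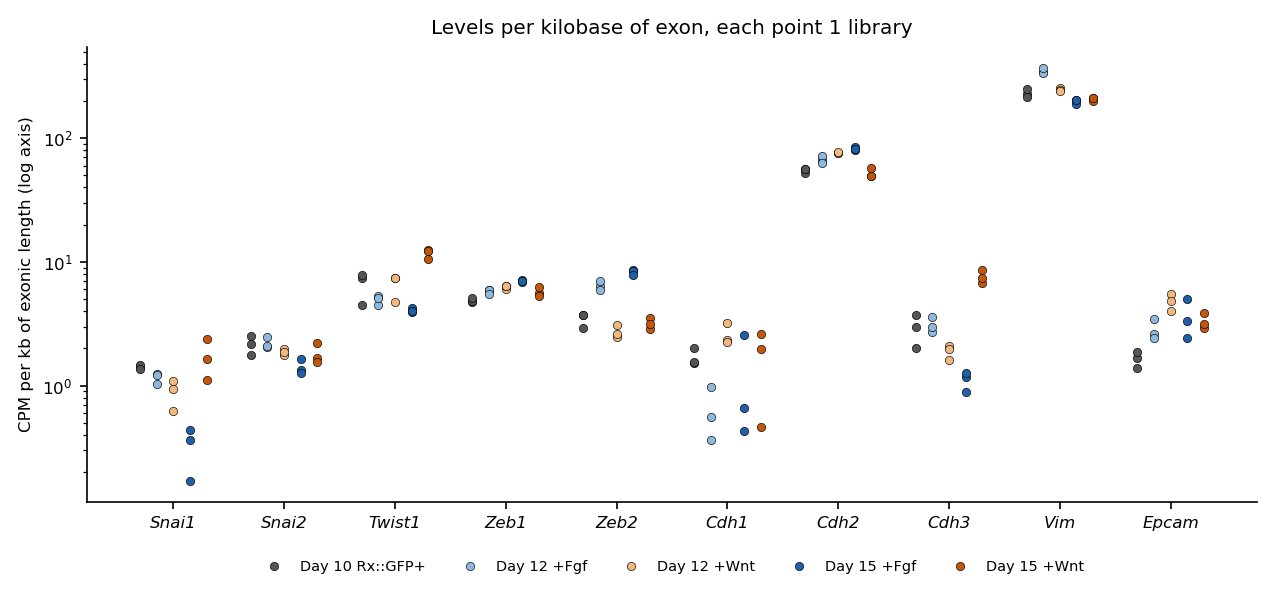
Level per kb of exonic length (log axis) for each of the 10 genes, 1 point per library and 1 colour per group. Vim and Cdh2 lie above all other genes, Cdh3 and Twist1 peak in Day 15 +Wnt, and Zeb2 peaks in Day 15 +Fgf.

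**Figure D2:**
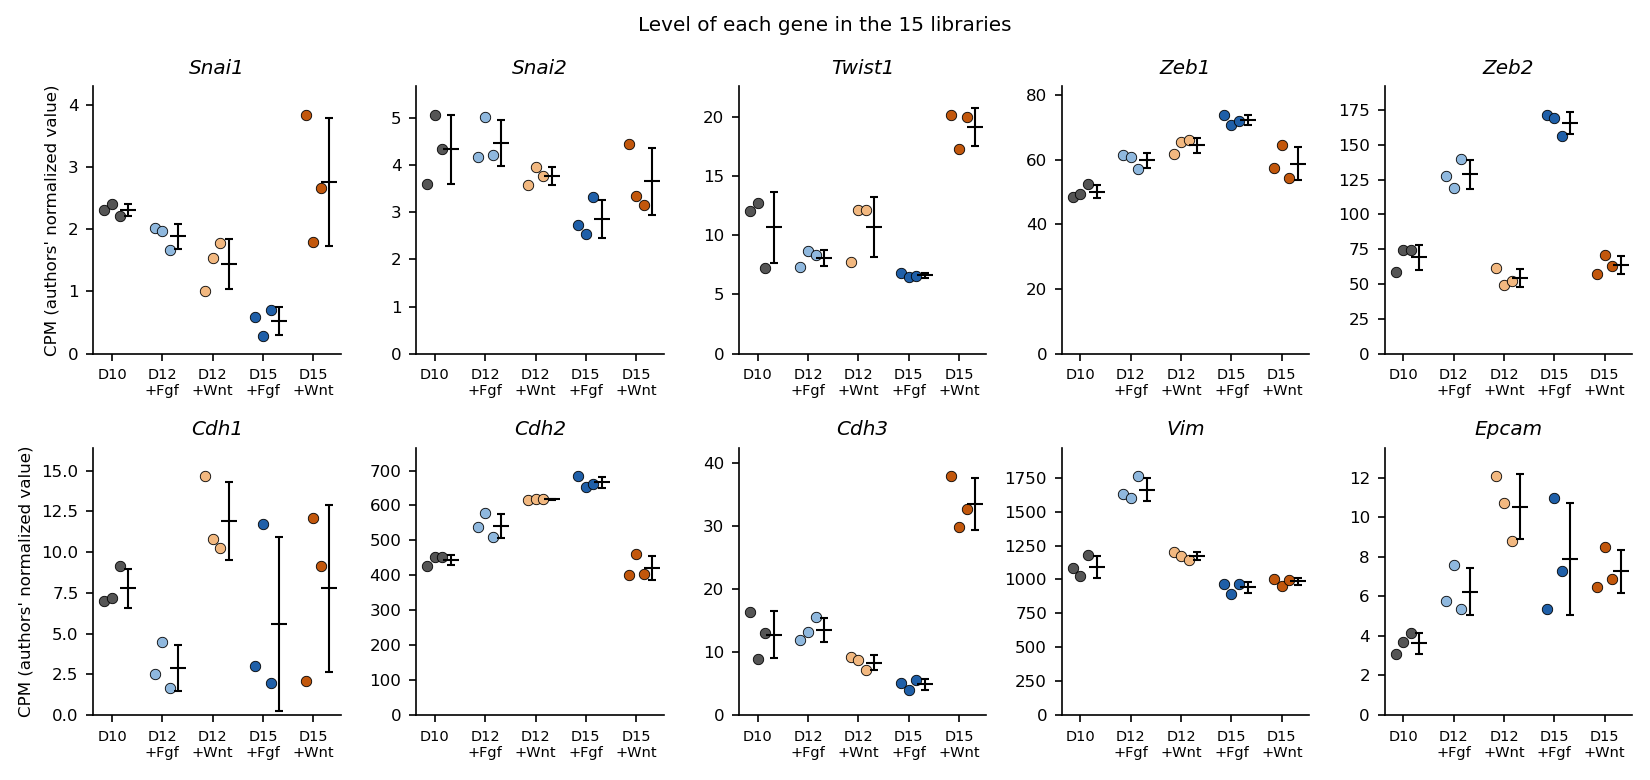
Normalized level (CPM) of each gene in the 15 libraries, 3 points per group in replicate order, with the group mean and SD (n = 3) drawn beside them in black. Every axis starts at 0. Zeb2 separates +Fgf from +Wnt at both days, Cdh3 and Twist1 are highest in Day 15 +Wnt, and Cdh1 is scattered within both Day 15 groups.

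Zeb2 set the stimulations apart at both days. Zeb2 (chr2:44983632-45117395, minus strand), a repressor of the same zinc-finger homeodomain family as Zeb1, was at 58.9, 74.1 and 74.3 CPM in the Day 10 Rx::GFP+ libraries. It was at 127, 119 and 139.8 CPM in Day 12 +Fgf and at 172, 169 and 156 CPM in Day 15 +Fgf. In +Wnt tissue it was at 61.4, 49.2 and 52.2 CPM at Day 12 and at 57.4, 70.5 and 63.0 CPM at Day 15. All 6 +Fgf libraries were thus higher than all 9 others. The level rose 1.86-fold from Day 10 to Day 12 +Fgf (log2 difference 0.90 ± 0.10 SE, limma adjusted p = 1.23e-06) and again to Day 15 (0.37 ± 0.10, limma adjusted p = 0.00462, or 0.0996 with the RNA integrity number as covariate). At Day 12 +Wnt it fell slightly against Day 10, to 0.785 of the Day 10 mean (log2 difference -0.35 ± 0.10, limma adjusted p = 0.00634), with overlapping ranges. Between stimulations it was 2.37-fold higher in +Fgf at Day 12 (limma adjusted p = 1.99e-08) and 2.60-fold higher at Day 15 (limma adjusted p = 2.33e-09). A small rise from Day 12 to Day 15 +Wnt (0.23 ± 0.10, limma adjusted p = 0.0482) was lost when any of 8 single libraries was left out. These were Day 12 +Fgf replicate 1, Day 12 +Wnt replicates 2 and 3, the 3 Day 15 +Fgf libraries, and Day 15 +Wnt replicates 2 and 3, with limma adjusted p from 0.0506 to 0.213 and a log2 difference of 0.15 without Day 15 +Wnt replicate 2. It was also lost with no filter on low values, without limma's trend and with the RNA integrity number as covariate (limma adjusted p = 0.0698, 0.0875 and 0.0552). The change from Day 12 to Day 15 was not shown to differ between stimulations for Zeb2 (difference 0.14, 95% interval -0.16 to 0.43).

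Zeb1 (chr18:5591860-5775467, plus strand) moved within a far narrower range. Its values were 48.4, 49.4 and 52.3 CPM at Day 10, 61.4, 60.8 and 57.1 CPM in Day 12 +Fgf, and 61.6, 65.3 and 66.1 CPM in Day 12 +Wnt. Day 15 libraries held 73.9, 70.7 and 72.0 CPM in +Fgf and 57.4, 64.4 and 54.4 CPM in +Wnt. Every stimulated library was therefore above every Day 10 library. Relative to Day 10, Zeb1 rose by 0.25 ± 0.06 on the log2 scale in Day 12 +Fgf (limma adjusted p = 0.00193) and by 0.36 ± 0.06 in Day 12 +Wnt (limma adjusted p = 7.75e-05). It rose further by Day 15 in +Fgf (0.27 ± 0.06, limma adjusted p = 0.000995, or 0.127 with the RNA integrity number as covariate), while in +Wnt the log2 difference from Day 12 was -0.13 ± 0.06 (limma adjusted p = 0.0576). That difference passed without Day 12 +Wnt replicate 1 (-0.16, limma adjusted p = 0.0406) or Day 15 +Wnt replicate 2 (-0.20, limma adjusted p = 0.00567). The 2 changes differed from each other by 0.41 ± 0.08 (limma adjusted p = 0.000871). At Day 15, Zeb1 was 1.23-fold higher in +Fgf than in +Wnt (limma adjusted p = 0.0003). Both Zeb genes have a transcript on the opposite strand that shares exon sequence, Zeb2os with 653 bases of Zeb2 and Gm10125 with 198 bases of Zeb1. The libraries kept strand, but the strand setting of the counting is not given in the sources used here, so reads of each pair cannot be told apart.

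Snai1 was lowest in Day 15 +Fgf tissue. Snai1 (chr2:167538195-167542814, plus strand) encodes a zinc-finger repressor of the Snail family. It stood at 2.32, 2.41 and 2.22 CPM at Day 10, at 2.03, 1.98 and 1.66 CPM in Day 12 +Fgf and at 1.01, 1.53 and 1.79 CPM in Day 12 +Wnt. At Day 15 it stood at 0.590, 0.275 and 0.707 CPM in +Fgf, which is 8, 4 and 10 reads, and at 3.85, 1.79 and 2.67 CPM in +Wnt, which is 62, 24 and 38 reads. The 3 Day 15 +Fgf libraries were below all 12 others. From Day 12 to Day 15, Snai1 fell in +Fgf (-1.44 ± 0.26, limma adjusted p = 0.000191) and rose in +Wnt (0.79 ± 0.26, limma adjusted p = 0.0142), and the difference between these changes was -2.23 ± 0.37 (limma adjusted p = 0.000121). Differences on this scale are understated for such low genes, since 0.3 was added to every value. The fall amounted to -0.93 with 1 added instead (limma adjusted p = 0.000361) and to -1.35 with the RNA integrity number as covariate (limma adjusted p = 0.084). The rise in +Wnt was lost without Day 12 +Wnt replicate 1 (0.59, limma adjusted p = 0.0773) or without Day 15 +Wnt replicate 1 (0.54, limma adjusted p = 0.0938), and it was 0.09 after quantile normalization (limma adjusted p = 0.793).

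Snai2 (chr16:14705852-14709385, plus strand), the Slug gene of the same family, was steadier. Its values ranged from 3.61 to 5.08 CPM at Day 10, from 4.18 to 5.03 CPM in Day 12 +Fgf, from 3.59 to 3.97 CPM in Day 12 +Wnt, from 2.54 to 3.32 CPM in Day 15 +Fgf and from 3.16 to 4.47 CPM in Day 15 +Wnt. The Day 15 +Fgf libraries lay below those of Day 10 and of both Day 12 groups with no overlap. Snai2 fell from Day 12 to Day 15 +Fgf by 0.60 on the log2 scale (limma adjusted p = 0.00592, or 0.197 with the RNA integrity number as covariate), and its difference between stimulations at Day 15 was -0.32, with a 95% interval from -0.67 to 0.04 (limma adjusted p = 0.103). Of the 8 pairs of groups tested, the only other one that passed was Day 15 +Fgf against Day 10 (-0.55, limma adjusted p = 0.00717). Scaling changed this, since after quantile normalization Snai2 was also lower in Day 15 +Wnt than in Day 12 +Wnt (-0.73, limma adjusted p = 0.00113) and at Day 10 (-1.10, limma adjusted p = 1.38e-05), and with libraries scaled to equal totals the Day 15 difference between stimulations passed (-0.39, limma adjusted p = 0.0461).

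Twist1 (chr12:33957671-33959829, plus strand) was highest in Day 15 +Wnt. Twist1 was at 12.1, 12.8 and 7.26 CPM at Day 10. By Day 12 it was at 7.35, 8.66 and 8.31 CPM under +Fgf and at 7.74, 12.1 and 12.2 CPM under +Wnt. By Day 15 it was at 6.86, 6.46 and 6.57 CPM under +Fgf and at 20.2, 17.3 and 20.0 CPM under +Wnt. The Day 15 +Wnt libraries were above all 12 others, and the Day 15 +Fgf libraries were below them all. Twist1 rose 1.80-fold from Day 12 to Day 15 +Wnt (0.85 ± 0.19, limma adjusted p = 0.000723), and at Day 15 it was 2.89-fold higher in +Wnt than in +Fgf (limma adjusted p = 2.47e-06). The changes from Day 12 to Day 15 differed between stimulations by -1.13 ± 0.27 (limma adjusted p = 0.00228). At Day 12, Twist1 passed the test in neither stimulation against Day 10 (log2 difference -0.35 in +Fgf, limma adjusted p = 0.126). That value reached -0.60 without Day 10 Rx::GFP+ replicate 3, the low library (limma adjusted p = 0.00655).

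Mesenchymal markers were high in the same 3 libraries as Twist1. The 9 markers Pdgfra, Pdgfrb, Prrx1, Twist2, Tbx18, Lum, Dcn, Col1a1 and Col3a1 summed to 554, 482 and 575 CPM in the Day 15 +Wnt libraries, against 57.0 to 209 CPM in the 12 other libraries. All 9 were above 3 reads in every Day 15 +Wnt library, and 7 or 8 of 9 in Day 15 +Fgf, where Tbx18 was listed at 0 in all 3 libraries. The 9 neural crest markers summed to 53.4 to 60.3 CPM in Day 15 +Wnt and to 31.5 to 50.8 CPM elsewhere. Much of the Day 15 +Wnt sum was Tfap2b, at 30.1, 31.8 and 28.3 CPM. Sox10 and Foxd3 were at most 0.186 and 0.124 CPM in those libraries. The part of such cells in the Twist1 and Snai1 levels was not tested.

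Cdh2 was the most abundant of the 3 cadherins in every group, and after Day 12 it rose in +Fgf tissue and fell in +Wnt tissue. Cdh2 (chr18:16588877-16809246, minus strand), the N-cadherin gene, was at 426, 452 and 451 CPM at Day 10, at 537, 579 and 511 CPM in Day 12 +Fgf and at 616, 618 and 619 CPM in Day 12 +Wnt. At Day 15 it was at 684, 654 and 661 CPM in +Fgf and at 399.6, 461 and 403 CPM in +Wnt. Both Day 12 groups were above Day 10, and of the stimulated groups only Day 15 +Wnt overlapped Day 10. It rose by Day 12 in +Fgf (0.29 ± 0.05, limma adjusted p = 0.000257) and in +Wnt (0.48 ± 0.05, limma adjusted p = 1.25e-06). Between Day 12 and Day 15 it rose in +Fgf (0.30 ± 0.05, limma adjusted p = 0.000177) and fell in +Wnt (-0.56 ± 0.05, limma adjusted p = 1.23e-07), a difference between changes of 0.85 ± 0.08 (limma adjusted p = 1.71e-07). The order of the stimulations thus turned over, with Cdh2 1.14-fold higher in +Wnt at Day 12 (limma adjusted p = 0.00735) and 1.58-fold higher in +Fgf at Day 15 (limma adjusted p = 1.19e-08).

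Cdh3 (chr8:106510891-106557297, plus strand), the P-cadherin gene, showed the widest spread of group means among the members on the log2 scale. It was at 16.4, 8.89 and 13.1 CPM at Day 10, at 11.9, 13.2 and 15.7 CPM in Day 12 +Fgf and at 9.25, 8.7 and 7.08 CPM in Day 12 +Wnt. At Day 15 it was at 5.16, 3.91 and 5.58 CPM in +Fgf and at 38.0, 29.8 and 32.8 CPM in +Wnt. The Day 15 +Wnt libraries were above all others and the Day 15 +Fgf libraries below all others. Cdh3 rose 4.02-fold from Day 12 to Day 15 +Wnt (1.97 ± 0.19, limma adjusted p = 1.01e-07) and fell in +Fgf over the same days (-1.42 ± 0.19, limma adjusted p = 7.19e-06). The difference between these changes was -3.39 ± 0.27 (limma adjusted p = 4.19e-08), and at Day 15 Cdh3 was 6.86-fold higher in +Wnt (limma adjusted p = 1.62e-09). At Day 12 the order was the other way, 1.63-fold higher in +Fgf (limma adjusted p = 0.00621). The lower level in Day 12 +Wnt than at Day 10 (-0.57 ± 0.19, limma adjusted p = 0.0161) had overlapping ranges and was lost without Day 10 Rx::GFP+ replicate 1 (-0.37, limma adjusted p = 0.103) or Day 12 +Wnt replicate 3 (-0.46, limma adjusted p = 0.076), and with the RNA integrity number as covariate (-0.41, limma adjusted p = 0.179).

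Cdh1 (chr8:106603351-106670246, plus strand), the E-cadherin gene, was low throughout and uneven within groups. Its values were 7.02, 7.15 and 9.17 CPM at Day 10, 2.54, 4.46 and 1.66 CPM in Day 12 +Fgf and 14.7, 10.8 and 10.3 CPM in Day 12 +Wnt. At Day 15 they were 3.02, 11.7 and 1.98 CPM in +Fgf and 2.11, 12.1 and 9.12 CPM in +Wnt. Replicate 2 of Day 15 +Fgf was far above its group, and replicate 1 of Day 15 +Wnt far below its own. At Day 12, Cdh1 was 4.12-fold lower in +Fgf than in +Wnt (-2.02 ± 0.56, limma adjusted p = 0.00641). Day 12 +Wnt was 1.53-fold higher than Day 10 with no overlap, but the difference missed the threshold (0.59 ± 0.56, limma adjusted p = 0.38). It passed when only the groups compared were fitted (limma adjusted p = 0.00902). Cdh1 was lower in Day 12 +Fgf than at Day 10. Its fall from Day 10 to Day 12 +Fgf (-1.43 ± 0.56, limma adjusted p = 0.0391) was lost when any of the 3 Day 10 libraries (limma adjusted p = 0.0643, 0.0706 and 0.103), Day 12 +Fgf replicate 1 (0.0854) or Day 12 +Fgf replicate 3 (0.144) was left out, and also with no filter on low values, without limma's trend or with the RNA integrity number as covariate (0.0643, 0.0789 and 0.0978). At Day 15 the difference between stimulations was -0.54, with a 95% interval from -1.73 to 0.64 (limma adjusted p = 0.402). Without Day 15 +Fgf replicate 2 it was -1.25 (limma adjusted p = 0.0387), and without Day 15 +Wnt replicate 1 it was -1.26 (limma adjusted p = 0.0358), but without Day 15 +Fgf replicate 3 it was -0.05 (limma adjusted p = 0.944) and without Day 15 +Wnt replicate 2 it was -0.08 (limma adjusted p = 0.913). The Day 15 +Fgf difference from Day 10 (-0.83, limma adjusted p = 0.19) likewise became -1.54 without Day 15 +Fgf replicate 2 (limma adjusted p = 0.0124) and -0.34 without Day 15 +Fgf replicate 3 (limma adjusted p = 0.61). A test of the Day 12 to Day 15 changes against each other gave 1.48 (limma adjusted p = 0.136), and 1.97 without Day 15 +Fgf replicate 3 (limma adjusted p = 0.0482), 0.77 without Day 15 +Fgf replicate 2 (limma adjusted p = 0.378) and 0.75 without Day 15 +Wnt replicate 1 (limma adjusted p = 0.382).

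Pluripotency genes also varied between libraries, and in each Day 15 group their sum was highest in the library with the most Cdh1. The 7 markers Pou5f1, Nanog, Zfp42, Dppa5a, Tdgf1, Esrrb and Dppa4 summed to 46.7 to 62.7 CPM at Day 10, 4.47 to 19.7 CPM in Day 12 +Fgf and 23.2 to 64.0 CPM in Day 12 +Wnt. Their sum was 1.03, 19.0 and 1.84 CPM in the Day 15 +Fgf libraries and 12.3, 61.2 and 60.9 CPM in the Day 15 +Wnt libraries. The 3 Day 15 libraries with more than 9 CPM of Cdh1 were those with the highest marker sums of their groups. Across groups the order was not kept. Day 12 +Wnt replicate 3 had a sum of 23.2 CPM with 10.3 CPM of Cdh1, while every Day 10 library had a higher sum and less Cdh1. Day 12 +Fgf replicate 2 and Day 15 +Fgf replicate 2 had similar sums (19.7 and 19.0 CPM) but 4.46 and 11.7 CPM of Cdh1. Of the 7 markers, 1 to 7 were above 3 reads in the Day 15 +Fgf libraries and all 7 in each Day 15 +Wnt library. Pou5f1, the pluripotency factor Oct4, was listed at 0, 2.88 and 0.212 CPM in Day 15 +Fgf and at 2.05, 11.9 and 11.9 CPM in Day 15 +Wnt. The 7 endoderm markers did not all move together. Afp, a fetal serum protein gene, and Apoa1, an apolipoprotein gene, were at 8.65 and 12.0 CPM in Day 15 +Fgf replicate 2 and at most 0.140 and 0.701 CPM elsewhere. Ttr, the transthyretin gene, was at 1231, 807 and 749 CPM in the Day 15 +Wnt libraries, against 120.5 CPM in Day 15 +Fgf replicate 2. Sox17 and Gata6, endoderm factors, were highest in Day 12 +Wnt replicate 1 (3.90 and 2.26 CPM), as was Foxa2 (1.38 CPM). That library also had the highest Cdh1 level of all 15 libraries (14.7 CPM). Gata6 and Foxa2 were nearly as high in Day 15 +Fgf replicate 2 (2.13 and 1.37 CPM), where Sox17 was at 0.549 CPM. In the rest of the Day 15 +Fgf group, Gata6 and Foxa2 were at most 0.353 and 0.212 CPM. Foxa1 was at most 0.772 CPM anywhere. The part of pluripotent or endodermal cells in Cdh1 was not tested.

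**Figure D3:**
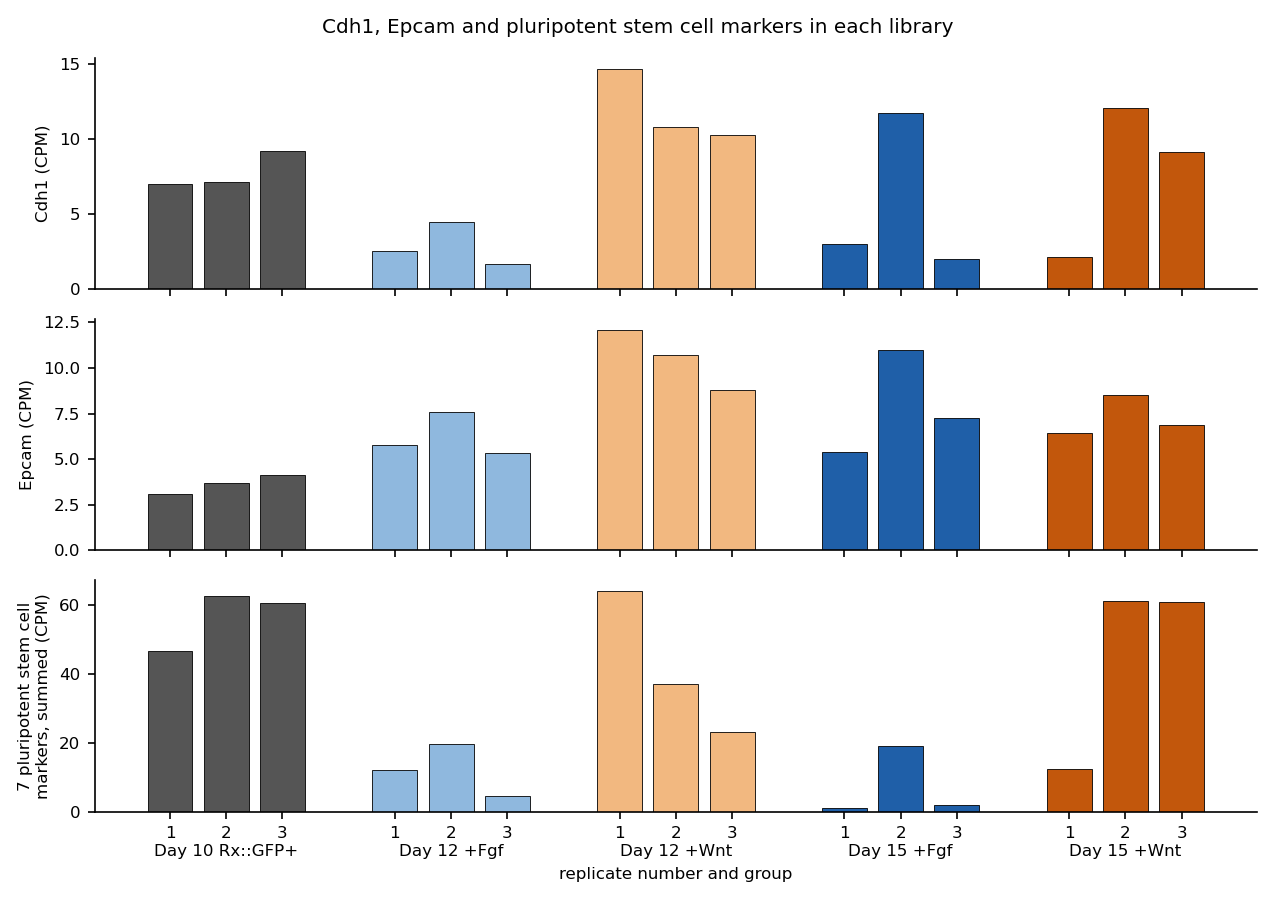
Cdh1, Epcam and the summed level of 7 pluripotent stem cell markers (CPM, axes from 0) in each of the 15 libraries, ordered by group and replicate number. Day 15 +Fgf replicate 2 (11.7 CPM of Cdh1) and Day 15 +Wnt replicates 2 and 3 stand above the rest of their groups in Cdh1 and in the marker sum.

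The ratio of N-cadherin to E-cadherin transcript, per kb of exon, was spread widely within both Day 15 groups. It was 27.9 to 35.8 at Day 10, 73.6 to 174 in Day 12 +Fgf and 23.8 to 34.2 in Day 12 +Wnt. Among Day 15 libraries it was 128, 31.6 and 189 in +Fgf and 107, 21.6 and 25.1 in +Wnt. Every library held at least 21.6 times as much Cdh2 as Cdh1 by this measure. The ratio of Cdh3 to Cdh1 per kb was 18.8, 2.58 and 3.75 in the Day 15 +Wnt libraries, and it was below 1 in all 3 Day 12 +Wnt libraries (0.658 to 0.841) and in Day 15 +Fgf replicate 2 (0.348). Cdh1 and Cdh3 lie next to each other on chromosome 8, with 46053 bases between the end of Cdh3 and the start of Cdh1 (GRCm38). In Day 15 +Fgf, Cdh3 had its lowest level while Cdh1 was uneven.

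Vim (chr2:13573927-13582826, plus strand), the gene of the type III intermediate filament vimentin, peaked in Day 12 +Fgf. Its level was 1081, 1022 and 1183 CPM at Day 10 and 1628, 1600.0 and 1762 CPM in Day 12 +Fgf, against 1204, 1170.0 and 1141 CPM in Day 12 +Wnt. At Day 15 it was 963, 895 and 970.1 CPM in +Fgf and 1000.1, 955 and 999.6 CPM in +Wnt. The 3 Day 12 +Fgf libraries lay above all 12 others, and the Day 15 groups overlapped. Vim rose 1.52-fold from Day 10 to Day 12 +Fgf (0.60 ± 0.05, limma adjusted p = 1.32e-07) and fell again by Day 15 (-0.82 ± 0.05, limma adjusted p = 2.77e-09). At Day 12 it was 1.42-fold higher in +Fgf than in +Wnt (limma adjusted p = 7.19e-07). In +Wnt it fell less from Day 12 to Day 15 (-0.25 ± 0.05, limma adjusted p = 0.000593, or -0.13 and 0.0731 after quantile normalization), and the difference between the changes was -0.57 ± 0.08 (limma adjusted p = 1.37e-05). Day 15 levels were below Day 10 in +Fgf (-0.21, limma adjusted p = 0.0019) and in +Wnt (-0.15, limma adjusted p = 0.0171), but both small differences turned to 0.02 and 0.12 after quantile normalization. The +Wnt one was also lost without Day 10 Rx::GFP+ replicate 3 (-0.09, limma adjusted p = 0.122) or Day 15 +Wnt replicate 2 (-0.13, limma adjusted p = 0.0642), in edgeR's count test (-0.10, edgeR adjusted p = 0.0931) and with the RNA integrity number as covariate (limma adjusted p = 0.0843). With libraries scaled to equal totals, the +Fgf difference was -0.13 (limma adjusted p = 0.0563) and the +Wnt one 0.02.

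Epcam (chr17:87635979-87651129, plus strand), which encodes a homophilic adhesion molecule of epithelial and stem cells, was higher in all stimulated tissue than at Day 10. It was at 3.07, 3.68 and 4.13 CPM at Day 10, at 5.77, 7.58 and 5.37 CPM in Day 12 +Fgf and at 12.1, 10.7 and 8.80 CPM in Day 12 +Wnt. Day 15 libraries held 5.38, 11.0 and 7.28 CPM in +Fgf and 6.45, 8.5 and 6.87 CPM in +Wnt. None of the 12 stimulated libraries overlapped Day 10. Epcam rose 2.91-fold by Day 12 +Wnt (1.46 ± 0.21, limma adjusted p = 1.95e-05) and 1.72-fold by Day 12 +Fgf (0.73 ± 0.21, limma adjusted p = 0.00806, or 0.68 and 0.101 with the RNA integrity number as covariate), and the 2 stimulations differed by -0.73 ± 0.21 (limma adjusted p = 0.00855). Day 15 levels were 2.18-fold (+Fgf, limma adjusted p = 0.00042) and 2.01-fold (+Wnt, limma adjusted p = 0.000606) those of Day 10, but after quantile normalization the +Wnt difference was 0.19 (limma adjusted p = 0.404). At Day 15 the stimulations differed by 0.06, with a 95% interval from -0.39 to 0.51. The fall from Day 12 to Day 15 +Wnt (-0.51 ± 0.21, limma adjusted p = 0.0414) was lost without Day 12 +Wnt replicate 1 (limma adjusted p = 0.144) or 2 (0.0917) and without Day 15 +Wnt replicate 1 (0.127) or 3 (0.0998). It also missed the threshold in edgeR's count test (-0.48, edgeR adjusted p = 0.0541), with no filter, without limma's trend, with median-of-ratios scaling and with equal totals (adjusted p from 0.0541 to 0.0827), but was -0.9996 after quantile normalization (limma adjusted p = 0.000454). The changes from Day 12 to Day 15 differed by 0.80 ± 0.30 (limma adjusted p = 0.0386), a call lost without any of 8 libraries, namely Day 12 +Fgf replicates 1 and 3, Day 12 +Wnt replicates 1 and 2, Day 15 +Fgf replicates 2 and 3, and Day 15 +Wnt replicates 1 and 3 (limma adjusted p from 0.0509 to 0.112, and 0.53 without Day 15 +Fgf replicate 2) and with no filter, without limma's trend, with equal totals or with the RNA integrity number as covariate (limma adjusted p from 0.0506 to 0.205). Within Day 15 +Fgf, the highest Epcam level was in replicate 2, the library with 19.0 CPM of pluripotency markers, and the part of such cells in Epcam was not tested.

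Day 12 +Fgf was compared with the Day 10 starting tissue, a difference in which bFgf, serum and time in culture cannot be told apart. Vim, Zeb2, Epcam, Cdh2 and Zeb1 were higher and Cdh1 was lower, so that 6 of 10 members passed the test, against 55.7% of all genes tested (27.9% higher and 27.8% lower). The ranges of 7 members did not overlap, against 61% of all genes. The median log2 difference of the members was 0.18, beside -0.00 for all genes.

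In Day 12 +Wnt against the same Day 10 libraries, Epcam, Cdh2 and Zeb1 were higher and Cdh3 and Zeb2 lower. Those 5 of 10 members compare with 60.2% of all genes called (30.6% higher and 29.6% lower), and 5 of 10 without overlap compare with 64.3%. The split of calls over all genes depended on the scaling, with 50.9% of called genes higher as deposited and 62.2% higher with libraries scaled to equal totals. The member median was 0.05. Cdh1 was 1.53-fold higher with no overlap but was not called (limma adjusted p = 0.38). Snai1 just missed the threshold (-0.61, limma adjusted p = 0.0551) and passed it without Day 12 +Wnt replicate 3 (-0.76, limma adjusted p = 0.0402). It also passed without Day 15 +Fgf replicate 2, Day 15 +Wnt replicate 1 or Day 15 +Wnt replicate 2, which only enter its spread (limma adjusted p = 0.0387, 0.0413 and 0.0395).

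From Day 12 to Day 15 +Fgf, the maturation of neural retina-like tissue, Zeb2, Cdh2 and Zeb1 were higher and Snai1, Cdh3, Vim and Snai2 lower. Thus 7 of 10 members passed, against 57.1% of all genes (27.2% higher and 29.9% lower), and 8 of 10 had ranges without overlap, against 63.7%. With the RNA integrity number as a covariate, 3 of the members and 3591 rather than 7899 genes in all passed. Snai1 (-1.35), Snai2 (-0.64), Zeb1 (0.27) and Zeb2 (0.47) lost their calls with folds close to those without the covariate (-1.44, -0.60, 0.27 and 0.37). The integrity numbers of these 2 groups do not overlap, so that covariate and stage cannot be told apart here. They also do not overlap between Day 10 and either Day 12 group, between Day 10 and Day 15 +Wnt, or between stimulations at Day 15. In those comparisons, too, covariate and group cannot be told apart. The member median was -0.00, beside -0.02 for all genes.

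From Day 12 to Day 15 +Wnt, the maturation of pigment epithelium-like tissue, Cdh3, Twist1, Snai1 and Zeb2 were higher and Cdh2, Epcam and Vim lower. These 7 of 10 compare with 68% of all genes called (32.5% higher and 35.5% lower), and 6 of 10 without overlap with 72.8%. The member median was -0.09, beside -0.02 for all genes.

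Between stimulations at Day 12, Zeb2, Cdh3 and Vim were higher in +Fgf, and Cdh1, Epcam and Cdh2 were higher in +Wnt. That made 6 of 10 members, against 51.5% of all genes (26.3% higher and 25.2% lower in +Fgf), with 8 of 10 free of overlap, against 60.4%. At Day 15, Zeb2, Cdh2 and Zeb1 were higher in +Fgf, and Cdh3, Snai1 and Twist1 were higher in +Wnt, again 6 of 10, against 68.7% of all genes (38% higher and 30.6% lower in +Fgf) and with 6 of 10 free of overlap against 73.1%. Cdh2 and Cdh3 had exchanged sides between the 2 days.

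**Figure D4:**
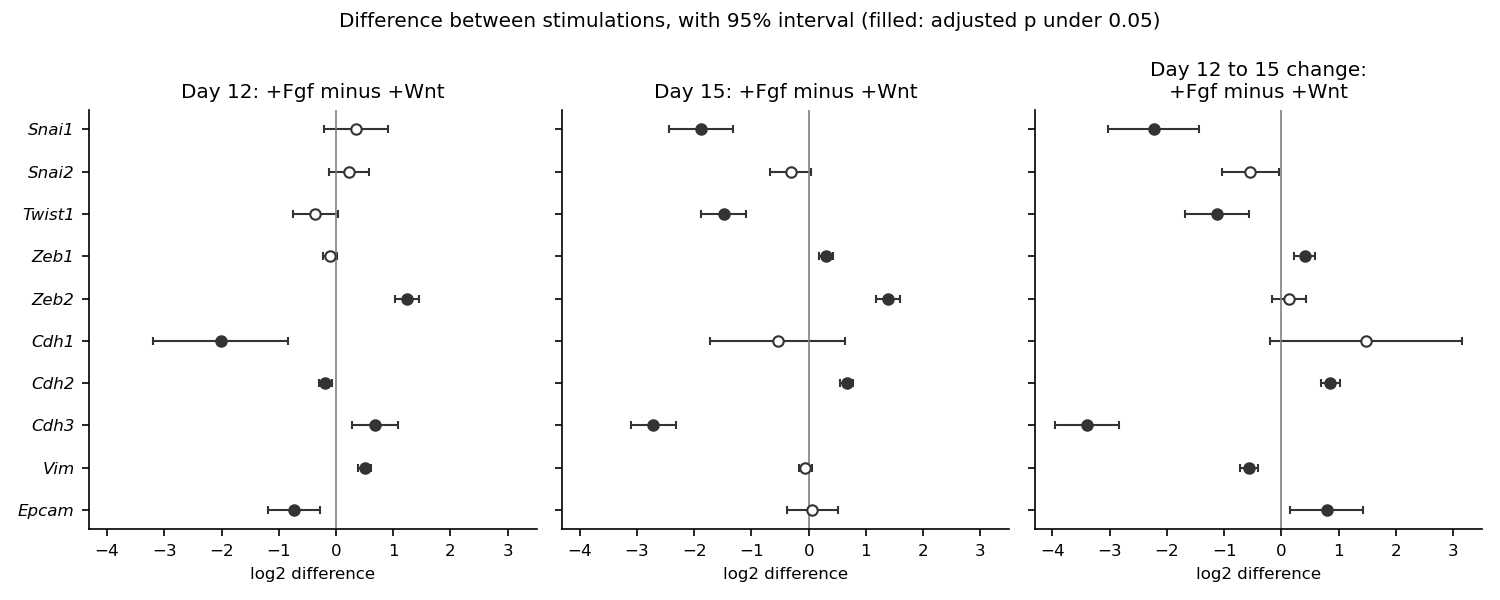
Log2 difference between +Fgf and +Wnt at Day 12 and at Day 15, and the difference between their Day 12 to Day 15 changes, for each gene with its 95% interval from limma (filled points passed an adjusted p of 0.05). Zeb2 lies to the right of 0 at both days, and Cdh3 moves from 0.68 at Day 12 to -2.71 at Day 15.

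Over the whole 5 days, Day 15 +Fgf differed from Day 10 in 9 of 10 members, all but Cdh1, with Zeb1, Zeb2, Cdh2 and Epcam higher and Snai1, Snai2, Twist1, Cdh3 and Vim lower (Vim not after quantile normalization or scaling to equal totals), against 72.6% of all genes (36.2% higher and 36.4% lower). All 9 were without overlap, against 73.8%. Day 15 +Wnt differed from Day 10 in 5 of 10, with Twist1, Zeb1, Cdh3 and Epcam higher and Vim lower (Vim not after quantile normalization or scaling to equal totals), against 79.8% of all genes (39.6% higher and 40.2% lower), and 5 of 10 were without overlap, against 80.6%. Of the 8 pairs of groups compared, this was the only one in which a scaling moved the median of all genes by over 0.1, as scaling to equal totals moved the median of all genes by 0.16 on the log2 scale and quantile normalization by -0.10. In the test of whether the Day 12 to Day 15 change differed between stimulations, 7 of 10 members passed (Zeb1, Cdh2 and Epcam toward +Fgf, and Snai1, Twist1, Cdh3 and Vim toward +Wnt), against 47.9% of all genes (27% and 20.9%). Comparisons with Day 10 share its 3 libraries and are not independent of each other.

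Other factors linked to the transition were listed with the members, 12 in number, of which 10 were tested. At Day 12, 4 were higher and 3 lower in +Fgf than in +Wnt (median 0.10, beside -0.00 for all genes, of which 51.5% were called), and at Day 15, 5 were higher and 4 lower (median -0.12, beside 0.05 and 68.7% called). Twist2, the paralog of Twist1, was at 7.79 ± 1.98 CPM (SD, n = 3) in Day 15 +Wnt and at no more than 0.424 CPM in the Day 15 +Fgf libraries, of which 2 listed it at 0 (limma adjusted p = 3.5e-09). Prrx1, a homeobox gene of mesenchyme, was at 50.4 ± 2.40 against 19.8 ± 3.78 CPM (limma adjusted p = 1.13e-08). The opposite direction was taken by Id1, an inhibitor of basic helix-loop-helix factors such as Twist, at 193.6 ± 7.7 CPM under +Fgf at Day 15, against 88.2 ± 10.7 CPM under +Wnt (limma adjusted p = 6.48e-08). Foxc2, a forkhead factor, was low but highest in Day 12 +Fgf, at 2.67 ± 0.653 CPM against 0.152 ± 0.0718 CPM in Day 12 +Wnt. Foxc2 passed the filter on low values only through the Day 12 +Fgf libraries, so its p-value is not given, though the counts above include it.

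Mesenchymal programme genes behaved differently at the 2 days. Of 18 listed and tested, 14 rose from Day 10 to Day 12 +Fgf and none fell (median 1.09, beside -0.00 for all genes, of which 27.9% rose and 27.8% fell), whereas 3 rose and 7 fell in Day 12 +Wnt (median 0.08, beside 0.01 for all genes, of which 30.6% rose and 29.6% fell). At Day 12, 14 were higher and 2 lower in +Fgf than in +Wnt (median 1.17, beside 51.5% of all genes called), while at Day 15, 4 were higher and 11 lower (median -0.997, beside 68.7% called), and 14 rose and 1 fell from Day 12 to Day 15 +Wnt (median 2.06, beside 68% called). Acta2, smooth muscle actin, and Tagln, the actin-binding transgelin, differed strongly at Day 12, with Acta2 at 177 ± 35.6 CPM in +Fgf and 2.95 ± 0.710 CPM in +Wnt (limma adjusted p = 4.32e-13) and Tagln at 316 ± 66.9 against 3.62 ± 0.366 CPM (limma adjusted p = 1.16e-12). Both were still higher in +Fgf at Day 15 (limma adjusted p = 6.8e-06 and 3.12e-10). Dcn and Lum, small proteoglycans of connective tissue, differed strongly at Day 15, with Dcn at 110.8 ± 12.5 CPM in +Wnt and 2.28 ± 1.51 CPM in +Fgf (limma adjusted p = 3.35e-09) and Lum at 51.7 ± 9.15 against 1.39 ± 1.25 CPM (limma adjusted p = 1.64e-05). Lum was scattered in Day 12 +Fgf, at 8.30, 24.4 and 0.703 CPM. Of the 9 mesenchyme markers given above, 6 are also on this list, and Prrx1 and Twist2 are on the list of other factors.

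Epithelial programme genes were low in Day 15 +Fgf. Of 22 listed, 15 were high enough to be tested, and at Day 15 none was higher and 11 were lower in +Fgf than in +Wnt (median -1.95, beside 0.05 for all genes, of which 38% were higher and 30.6% lower). At Day 12 the split was 4 higher and 4 lower (median -0.15, beside 51.5% of all genes called). From Day 12 to Day 15 +Wnt, 10 rose and 2 fell, beside 32.5% and 35.5% of all genes. Krt18, a keratin of simple epithelia, was at 313 ± 47.3 CPM under +Wnt at Day 15, against 16.8 ± 6.02 CPM under +Fgf (limma adjusted p = 2.29e-11). Dsp, the desmosomal linker desmoplakin, was at 35.7 ± 9.68 against 2.09 ± 1.53 CPM (limma adjusted p = 6.48e-08). Krt19, another keratin, rose from 1.39 ± 0.674 CPM in Day 12 +Wnt to 19.2 ± 3.86 CPM in Day 15 +Wnt (limma adjusted p = 1.68e-09). Esrp1, a splicing regulator of epithelial cells, had its highest level in Day 12 +Wnt, at 7.69 ± 0.353 CPM against 0.403 ± 0.131 CPM in Day 12 +Fgf (limma adjusted p = 4.61e-08), as Cdh1 did.

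**Figure D5:**
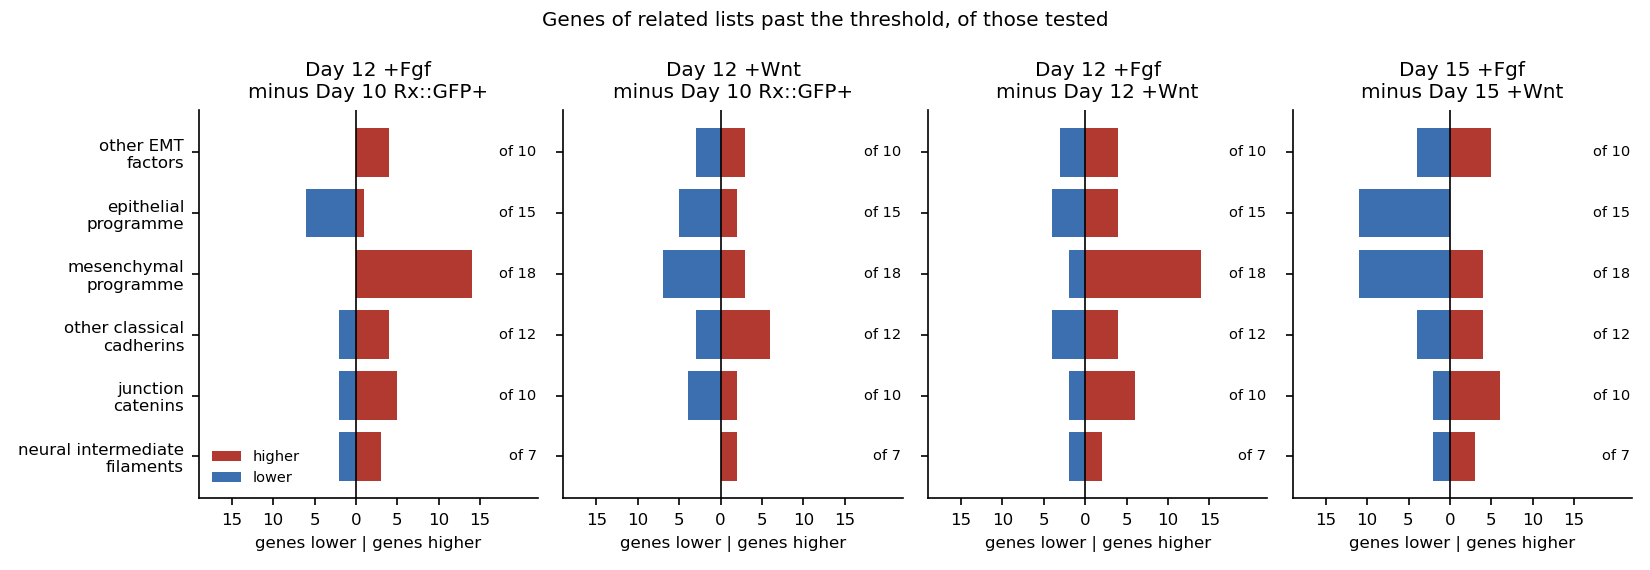
Number of genes higher (right, red) and lower (left, blue) at a limma adjusted p of 0.05 in 4 comparisons, for 6 related gene lists, with the number tested at the right of each bar. Mesenchymal programme genes are higher in Day 12 +Fgf (14 of 18 against Day 10) and mostly lower in Day 15 +Fgf than in Day 15 +Wnt (11 of 18), as are 11 of 15 epithelial programme genes.

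Other classical cadherins did not move as a block. Of 15 listed, 12 were tested, with 4 higher and 4 lower in +Fgf than in +Wnt at each of the 2 days (medians -0.24 and 0.01), beside 51.5% and 68.7% of all genes called (medians -0.00 and 0.05). Cdh20 was at 113 ± 5.74 CPM under +Fgf at Day 15, against 14.6 ± 0.759 CPM under +Wnt (limma adjusted p = 1.04e-14). Cdh6 peaked in Day 12 +Fgf at 43.8 ± 3.91 CPM, against 10.0 ± 1.32 CPM in Day 12 +Wnt (limma adjusted p = 5.71e-09). Cdh7 and Cdh9 had the reverse order at Day 15, with Cdh7 at 20.2 ± 3.59 CPM in +Wnt and 1.57 ± 1.28 CPM in +Fgf (limma adjusted p = 2.2e-07) and Cdh9 at 8.35 ± 0.918 against 0.684 ± 0.330 CPM (limma adjusted p = 2.54e-09).

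Catenins and other genes of cadherin junctions were listed under 12 symbols, of which Vcl, Afdn and Mllt4 do not name catenins. Afdn and Mllt4 name 1 gene and only Mllt4 was an entry, so 11 were found and 10 tested. At both days 6 were higher and 2 lower in +Fgf than in +Wnt (medians 0.22 and 0.16), beside 51.5% and 68.7% of all genes called (medians -0.00 and 0.05). Jup, plakoglobin, was at 45.9 ± 7.84 CPM under +Fgf at Day 12, against 19.3 ± 0.620 CPM under +Wnt (limma adjusted p = 4.95e-08). Vcl, vinculin, was at 269 ± 35.5 against 91.1 ± 3.85 CPM at Day 12 (limma adjusted p = 4.42e-10), and at Day 15 it was at 92.8 ± 6.76 CPM in +Fgf and 89.5 ± 5.63 CPM in +Wnt (limma adjusted p = 0.632). Ctnnd2, delta-catenin of neural tissue, was at 96.6 ± 4.55 CPM under +Fgf at Day 15, against 51.5 ± 5.30 CPM under +Wnt (limma adjusted p = 1.86e-08), and Ctnna2, the neural alpha-catenin, was at 46.7 ± 1.23 against 79.2 ± 12.4 CPM (limma adjusted p = 0.0002).

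Intermediate filament genes of neural cells took another course than Vim. Of 8 listed, 7 were tested, and from Day 12 to Day 15 +Fgf, where Vim fell, 5 rose and 1 fell (median 1.82, beside -0.02 for all genes, of which 27.2% rose and 29.9% fell). Nefl and Nefm, neurofilament subunits, reached 144.7 ± 14.5 and 172 ± 6.65 CPM in Day 15 +Fgf, from 9.86 ± 1.69 and 14.5 ± 0.479 CPM in Day 12 +Fgf (limma adjusted p = 1.08e-11 and 1.35e-10). Ina, alpha-internexin, was at 131 ± 22.3 CPM under +Fgf at Day 15, against 131 ± 14.6 CPM under +Wnt (limma adjusted p = 0.975). The 7 markers of retinal ganglion cells and early neurons also rose over these days, from summed levels of 290.4 to 307 CPM to 1669 to 1881 CPM, and their part in the filament genes was not tested. Prph, peripherin, was low, at 2.13 ± 0.453 CPM in Day 15 +Fgf against 0.382 ± 0.0646 CPM in Day 12 +Fgf. Prph would not have passed the filter on low values without the Day 15 +Fgf libraries, so its p-value is not given.

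Genes whose 5 group means most resembled those of a member were sought for the 6 members whose group means spanned at least 1 on the log2 scale, by the root mean square difference of centred log2 means over 12041 candidates. Zeb2 was nearest to Cxxc5 (0.0734), Micall2 and Clmn, and Twist1 to Klhl14 (0.0730), Amacr and Kifc3. Cdh3 was nearest to Ptges (0.218), Tmod1 and Nkd2, and Cdh1 to Tmem200c (0.133), Fezf2 and Grhl3. Snai1 was nearest to Matn3 (0.143), Eva1c and Galnt10, and Epcam to Fgfbp3 (0.158), Zfand4 and Lrrc56. The median over candidates was between 0.578 for Epcam and 0.968 for Cdh3. Such likeness describes 5 means and carries no test.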

How the data were processed

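RNA-seq libraries (TruSeq Stranded mRNA) were made from 15 samples in 5 groups. Per the labels and the submitters' processing notes, reads were aligned with TopHat 2.0.8b to mm10 with a UCSC transcriptome, and Cufflinks 2.1.1 and edgeR 3.2.4 are named. The deposited values, called CPM by the authors, are a normalized signal whose columns summed to between 936418 and 1075448. Of the nonzero values, 100% were whole multiples of 1 read within 0.001 read, so reads were recovered. No column lacked a sample.

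A gene was tested where 3 or more libraries reached 1 CPM relative to the total of their own column, by limma 3.58.1 (R 4.3.3, trend) on log2(value + 0.3), with all 15 libraries in a fit of 5 group means. Tests were two-sided and adjusted by Benjamini-Hochberg over 13845 genes within each comparison, with a threshold of 0.05. Fold changes on this scale are understated for low genes, while ratios quoted as fold are of group mean CPM. Alternatives used edgeR 4.0.16 on the recovered reads, DESeq2 1.42.0 size factors, other scalings, pseudocounts and filters, a covariate and fits without single libraries. The procedure was tested on simulated data. The members and gene lists were chosen with earlier results of these data known. From each list at most 4 genes were named, those with the largest absolute log2 difference in any of 6 comparisons among those past the threshold, and the 3 genes most like a member were named where its group means spanned at least 1 on the log2 scale. RNA integrity numbers came from the study's methods and entered only as a covariate. Intervals cover the spread between libraries, and reads without molecular identifiers are not independent molecules.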

Additional observations from a re-analysis of the deposited data

Results flagged for a closer look

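For 7 genes the log2 change from Day 12 to Day 15 under +Fgf differed from that under +Wnt in limma's test of the difference itself (adjusted p under 0.05), and each value is the +Fgf change minus the +Wnt change. Snai1 differed by -2.23, Twist1 by -1.13, Cdh3 by -3.39 and Vim by -0.57. Zeb1 differed by 0.41, Cdh2 by 0.85 and Epcam by 0.80, the last of which was lost in 8 of 15 fits that left out a library. Groups of 3 libraries are too small for a test of outlying samples.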

How the results depend on the processing

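Of 1062 values for the 10 genes under other settings, 1016 kept their side of the threshold, 28 lost the call, 13 gained one and 5 reversed. Of 1350 with a library left out, 1302 kept their side, 31 lost the call, 17 gained one and none reversed. A change of sign counted as a reversal only where at least 1 of the 2 fits passed the threshold. Values that passed in neither fit could change sign and still count as kept. Snai2 in Day 12 +Fgf against Day 10, for example, ran from -0.114 to 0.0901 over the settings. The reversals were those of Vim in Day 15 +Fgf against Day 10 (0.0196 after quantile normalization), and in Day 15 +Wnt against Day 10 of Vim (0.12 after quantile normalization, 0.0165 with libraries scaled to equal totals), Snai1 (-0.71) and Cdh2 (0.21), the latter pair after quantile normalization. The cause was not tested.

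With the RNA integrity number as covariate, the Day 12 to Day 15 +Fgf comparison called 3 members and 3591 genes in all, and the difference between the Day 12 to Day 15 changes called 3842 genes against 6636, the cause of which was not tested. With the longest transcript as length, the median ratio of Cdh2 to Cdh1 was 55.5 at Day 10, 194 in Day 12 +Fgf and 52.4 in Day 12 +Wnt, 207 in Day 15 +Fgf and 40.4 in Day 15 +Wnt. The ratio moved alike in every library because the lengths changed, from 8066 to 4843 bases for Cdh2 and from 4574 to 4430 for Cdh1. A filter at 10 CPM left out Snai1 and Snai2, so these have no value under it.

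Leaving out 1 library gave 5 to 6 members and 6791 to 7768 genes called in Day 12 +Fgf against Day 10, 4 to 6 and 7528 to 8367 in Day 12 +Wnt against Day 10, 7 to 8 and 6987 to 8112 from Day 12 to Day 15 +Fgf, and 5 to 7 and 8806 to 9573 from Day 12 to Day 15 +Wnt. The ranges were 6 to 7 and 6200 to 7372 between stimulations at Day 12, 6 to 7 and 8916 to 9677 at Day 15, 9 to 10 and 9552 to 10070 in Day 15 +Fgf against Day 10, 4 to 6 and 10653 to 11057 in Day 15 +Wnt against Day 10, and 6 to 8 and 6007 to 6876 for the difference between changes. Calls gained beside those given above were Twist1 between stimulations at Day 12 without Day 12 +Wnt replicate 1 (-0.57), Epcam from Day 12 to Day 15 +Fgf without Day 15 +Fgf replicate 1 (0.52), Vim in Day 12 +Wnt against Day 10 without Day 10 Rx::GFP+ replicate 3 (0.16), and Snai2 in the difference between changes without Day 15 +Fgf replicate 3 (-0.64). In Day 15 +Wnt against Day 10, Zeb2 gained a call without Day 10 Rx::GFP+ replicate 1 (-0.23), as did Cdh2 without Day 15 +Wnt replicate 2 (-0.14). Quantile normalization gave Twist1 a call in Day 12 +Fgf against Day 10 (-0.46) and from Day 12 to Day 15 +Fgf (-0.50) and Vim one in Day 12 +Wnt against Day 10 (0.25), and equal totals gave Vim calls in the latter (0.19) and between stimulations at Day 15 (-0.14).

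The deviations of 30 same-numbered pairs of libraries correlated between -0.25 and 0.24, with 7 over 0.1. Those of 60 pairs of different number correlated between -0.33 and 0.29, with 14 over 0.1. Pairing by replicate number was not seen by this measure, which does not show that there was none. With the replicate number as a block, the 1 call lost was that of Zeb2 from Day 12 to Day 15 +Wnt (0.23, limma adjusted p = 0.0629), and the other 89 of 90 values kept their call. By edgeR's count test, 7132 genes passed between stimulations at Day 12 and 9318 at Day 15, beside 7131 and 9505 by limma. Snai1 rests on 4 to 62 reads per library, which limits the precision of its fold changes.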
